A study of Mus musculus with 6 samples.

Results

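Genes that build, coat and empty the cytosolic lipid droplet were compared between mice labelled as myeloid knockouts of Rack1 and control mice, in alveolar macrophages, which live in the air spaces of the lung. The 10 genes are Gpd1, Cidec, Pnpla5, Pnpla2, Plin2, Hilpda, Dgat1, Dgat2, Lipe and Lpl, taken by symbol from the 26428 genes of the deposited table. All 10 have a row there, and all 10 had enough counts to be tested among 14797 genes. RNA was sequenced from 3 knockout libraries with the genotype label Rack1{delta}Mye and 3 control libraries with the genotype label Rack1F/-. The tissue label of both groups is lung and the cell type label is alveolar macrophage. The labels give no age, sex, strain, treatment or Cre driver for the mice. Whether each library stands for an animal of its own is not stated, and p-values therefore measure only the spread between these samples, which may be technical. RACK1 is a ribosome-bound adaptor protein, and no other allele is named for either group.

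Triglyceride is made from glycerol-3-phosphate and activated fatty acids, and the diacylglycerol acyltransferases add the last acyl chain. The product is stored in droplets whose surface carries perilipins and CIDE proteins, and it is released again by lipases of the patatin-like and hormone-sensitive families. Alveolar macrophages take up and degrade the lipids of lung surfactant and become foamy when lipid accumulates in them.

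Estimated counts summed to between 51894849 and 56082536 units in the knockout libraries and between 54871157 and 66163430 units in the control libraries. The normalization factors of the TMM method, which scales libraries to a common bulk of genes, ran from 0.799 to 1.09 in knockout and from 0.961 to 1.30 in control. Rack1 itself lay at 34.1 to 38.6 counts-per-million (CPM) in knockout, against 77.3 to 83.5 CPM in control. Of the 10 alveolar macrophage markers checked, all had enough counts to be tested, with summed levels of 90067 to 159733 CPM in knockout and 77566 to 152645 CPM in control. Of these, 3 were higher and 2 lower in knockout. Marco lay at 3250 to 5201 CPM in knockout and 901.1 to 1098 CPM in control, and Siglecf at 98.4 to 112.6 CPM in knockout and 153.3 to 171.2 CPM in control. Chil3 made up most of the summed level in every library, at 76924 to 141708 CPM in knockout and 71008 to 142869 CPM in control. The sums therefore say little about the other markers. Markers of adipocytes, whose own triglyceride genes overlap with those described here, summed to 3.89 to 4.55 CPM in knockout and 5.14 to 6.97 CPM in control. Most of each sum came from Lipe, itself one of the 10 genes, and the perilipin gene Plin1. Lipe lay at 2.12 to 2.82 CPM in knockout and 2.24 to 3.79 CPM in control, and Plin1 at 1.28 to 1.67 and 0.898 to 3.71 CPM. The defining Adipoq reached at most 0.116 CPM in any library. Intestinal epithelium markers summed to 0.871 to 1.86 CPM in knockout and 16.97 to 19.1 CPM in control, with 0 of 8 tested markers higher and 7 lower in knockout. Krt20, Slc26a3, Cdh17 and Vil1 were at 0 in all knockout libraries, but lay at only 0.198 to 1.25 CPM in control. Lypd8 lay at 0 to 0.314 CPM in knockout and 6.41 to 8.70 CPM in control. Neutrophil markers summed to 76.3 to 88.6 CPM in knockout and 21.7 to 36.8 CPM in control, with 1 of 6 tested markers higher and 2 lower in knockout. Retnlg made up most of the knockout sum, at 44.1 to 63.2 CPM in knockout and 0 to 11.9 CPM in control, and did not pass the test (edgeR adjusted p = 0.0680). Csf3r was lower, at 1.47 to 4.12 CPM in knockout and 7.93 to 10.6 CPM in control. Mmp9 was higher, at 0.555 to 1.30 CPM in knockout and 0.0350 to 0.257 CPM in control (edgeR adjusted p = 0.0365). Ly6g and Camp were at 0 in all knockout libraries, but reached only 0.163 to 0.312 and 0 to 0.128 CPM in control, and Camp was not tested. Markers of alveolar type II epithelium summed to 13.8, 22.8 and 30.9 CPM in knockout replicates 1, 2 and 3, and to 12.5 to 14.3 CPM in control. Of 5 tested markers of this epithelium, 2 were higher and 0 lower in knockout. Sftpc was higher at 6.75 to 18.5 CPM in knockout against 2.16 to 6.03 CPM in control (edgeR adjusted p = 0.0386). Sftpa1 was higher at 1.18 to 5.08 CPM in knockout against 0.257 to 0.746 CPM in control (edgeR adjusted p = 0.0122). Abca3 lay at 4.33 to 8.14 CPM in knockout and 6.84 to 9.04 CPM in control, and did not pass the test (edgeR adjusted p = 0.278). Monocyte markers summed to 16.8 to 43.0 CPM in knockout, highest in replicate 3, and 9.31 to 19.4 CPM in control, and none of 6 passed the test. Endothelial markers summed to 0.366 to 0.917 CPM in knockout and 0.513 to 0.972 CPM in control. Lymphocyte markers summed to 17.03 to 23.4 CPM in knockout and 11.7 to 24.9 CPM in control. The part of these cells in the results below was not tested. In RNA from many cells, fewer cells of a type and less RNA per cell cannot be told apart.

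The droplet genes changed in opposite directions, also within a single step of the pathway. Plin2, Hilpda, Dgat1 and Lpl were higher in knockout, and Gpd1, Cidec, Pnpla5, Pnpla2 and Dgat2 were lower. Lipe was the remaining gene and did not pass the test. In all, 4 of 10 genes rose and 5 fell (Benjamini-Hochberg adjusted p under 0.05 over all genes, from edgeR's quasi-likelihood test), whereas 5.93% of all genes tested rose and 6.01% fell, together 11.9%. The CPM of the 3 knockout and 3 control libraries did not overlap for 9 of the 10 genes, and for 31.2% of all genes tested. The 10 genes had a median log2 fold change of -0.40, and the whole set of tested genes one of 0.01. When libraries were scaled to their totals, the median over all genes was -0.31, a shift of 0.32, and 2 of the 10 genes rose and 5 fell, while 8.27% of all genes passed the test, 290 of them higher and 933 lower, against 878 higher and 889 lower with TMM.

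**Figure D1:**
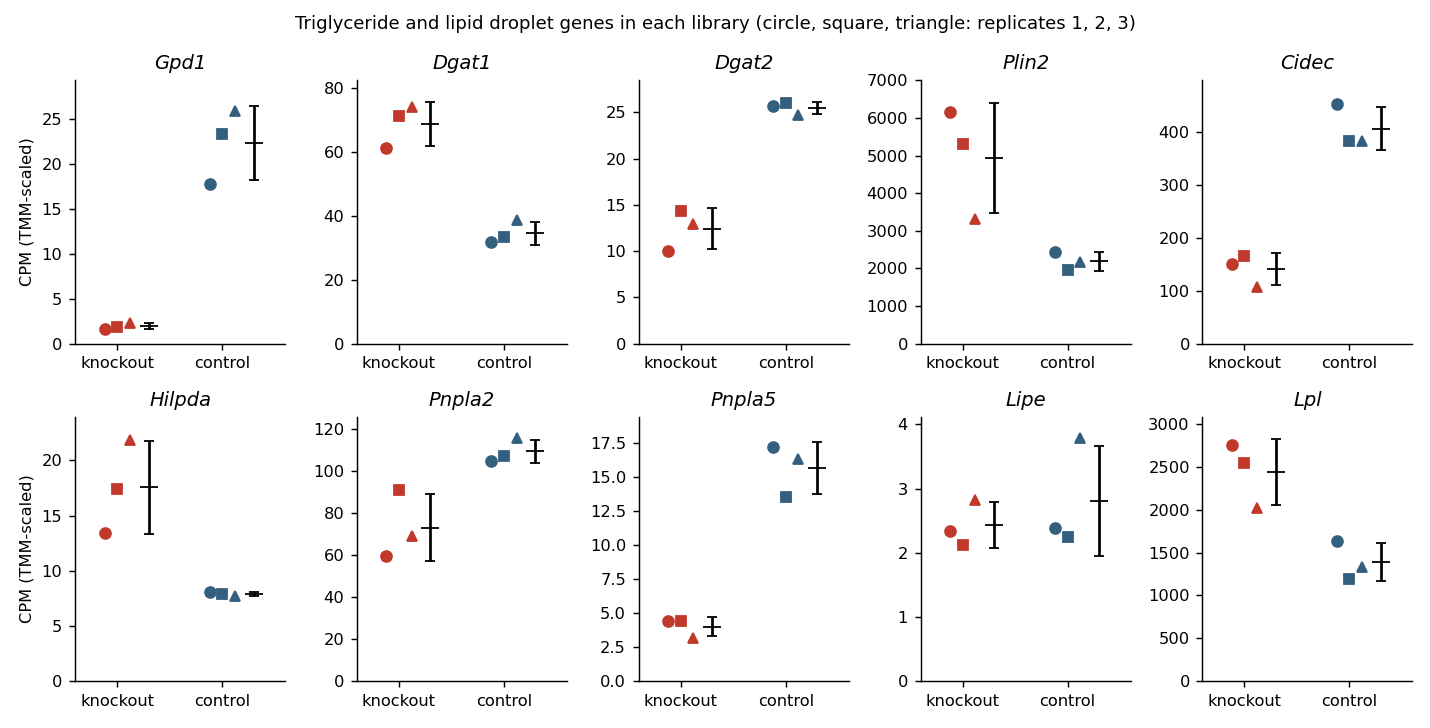
CPM of each gene (vertical axes, from 0) in the 3 knockout libraries (red, left) and 3 control libraries (blue, right); symbols mark replicates 1, 2 and 3, and bars show mean ± SD. The groups do not overlap for 9 of the 10 genes, and Lipe is the one whose groups overlap.

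At the entry to synthesis, Gpd1 showed the largest difference among the 10 genes. It encodes the cytosolic glycerol-3-phosphate dehydrogenase, which makes the glycerol backbone from a glycolytic intermediate, and lies at chr15:99717515-99725005 on the plus strand of GRCm38. Gpd1 measured 1.68, 1.83 and 2.31 CPM in the knockout libraries, with 17.8, 23.4 and 25.9 CPM in the control libraries. Library values are listed in the order of replicates 1, 2 and 3. Every knockout library was far below every control library, and the control libraries differed more among themselves than the whole knockout level. The mean was 1.94 ± 0.329 CPM in knockout and 22.4 ± 4.15 CPM in control (SD, n = 3 each), 11.5-fold lower in knockout. The log2 fold change was -3.52 ± 0.206 (SE; edgeR adjusted p = 6.4e-06). It ran from -3.67 to -3.40 when each library was left out in turn. An antisense gene, Gm16537, shares 384 of the 2961 exonic bases of Gpd1 and reached at most 0.187 CPM in any library. Gpd2, the mitochondrial enzyme of the glycerol phosphate shuttle, averaged 21.7 ± 3.09 CPM in knockout and 17.9 ± 1.85 CPM in control (SD, n = 3 each), with overlapping groups (edgeR adjusted p = 0.296). The ratio of Gpd1 to Gpd2 in deposited FPKM, a level scaled for gene length and library depth, was 0.153, 0.223 and 0.226 in knockout libraries, against 2.50, 2.71 and 3.05 in control libraries. The cytosolic form thus had the higher per-length level in every control library and the lower one in every knockout library.

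At the last step of synthesis Dgat1 rose and Dgat2 fell. Both encode diacylglycerol acyltransferases that make triglyceride in the endoplasmic reticulum and belong to unrelated protein families. Dgat1 lies at chr15:76502015-76511951 and Dgat2 at chr7:99153658-99182719, both on the minus strand. Dgat1 measured 61.1, 71.2 and 74.2 CPM in the knockout libraries, with 31.8, 33.2 and 38.6 CPM in the control libraries. The knockout libraries all lay above the control libraries, with a mean of 68.8 ± 6.86 CPM in knockout and 34.5 ± 3.58 CPM in control (SD, n = 3 each), 1.99-fold higher in knockout. The log2 fold change of Dgat1 was 1.00 ± 0.130 (SE; edgeR adjusted p = 0.00104). Its call was lost on library totals (log2 fold change 0.67, edgeR adjusted p = 0.131) and with limma on log2(FPKM + 1) (0.63, adjusted p = 0.0622). In the deposited FPKM, knockout replicate 1 at 15.4 was just below control replicate 3 at 15.5. Dgat2 measured 9.98, 14.3 and 12.96 CPM in the knockout libraries, with 25.6, 26.0 and 24.8 CPM in the control libraries. The control libraries were nearly level and all above the knockout libraries. The mean of Dgat2 was 12.4 ± 2.22 CPM in knockout and 25.5 ± 0.641 CPM in control (SD, n = 3 each), 2.05-fold lower in knockout, and its log2 fold change was -1.04 ± 0.157 (SE; edgeR adjusted p = 0.00238). The FPKM ratio of Dgat2 to Dgat1, which does not depend on the scaling between libraries, was 0.162, 0.199 and 0.173 in knockout libraries, against 0.801, 0.777 and 0.637 in control libraries.

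On the droplet surface, Plin2 rose and Cidec fell. Plin2 encodes perilipin 2, the coat protein of droplets outside fat tissue, and lies at chr4:86648386-86670060 on the minus strand. Plin2 measured 6167, 5309 and 3307 CPM in the knockout libraries, with 2439, 1943 and 2167 CPM in the control libraries. All knockout libraries were above all control libraries, with knockout replicate 3 the closest to them. The mean was 4928 ± 1467 CPM in knockout and 2183 ± 248.3 CPM in control (SD, n = 3 each), 2.26-fold higher in knockout. The log2 fold change was 1.17 ± 0.247 (SE; edgeR adjusted p = 0.0123). The call was lost without control replicate 2, at a log2 fold change of 1.09 (edgeR adjusted p = 0.0652). By mean FPKM, Plin2 ranked 47 among the 14797 genes tested in knockout and 86 in control.

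Cidec encodes the CIDE protein known as FSP27, which enlarges droplets by passing lipid between them, and lies at chr6:113424634-113435760 on the minus strand. Cidec measured 151.0, 166.1 and 107.8 CPM in the knockout libraries, with 453.9, 383.1 and 384.4 CPM in the control libraries. The groups were well apart, with a mean of 141.6 ± 30.3 CPM in knockout and 407.1 ± 40.5 CPM in control (SD, n = 3 each), 2.87-fold lower in knockout. The log2 fold change was -1.52 ± 0.175 (SE; edgeR adjusted p = 0.000452). The FPKM ratio of Cidec to Plin2 was 0.0463, 0.0592 and 0.0616 in knockout libraries, against 0.352, 0.373 and 0.336 in control libraries, a 6.39-fold difference between the geometric means.

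The start regions of coat genes that moved in opposite directions are shown so that they can be set side by side. They are RefSeq windows on GRCm38.p6 of 300 bases, 250 before and 50 after an annotated start, written 5′ to 3′ along the gene. Capitals mark matches, on either strand, to the nuclear receptor core AGGTCA, the hypoxia response core ACGTG, the TATA box TATAAA or the CCAAT box. The E-box CACGTG holds ACGTG on both strands, so a match to it counts for both. Cidec is shown at chr6:113435711-113436010 and Plin2 at chr4:86670010-86670309, both on the minus strand.
Cidec: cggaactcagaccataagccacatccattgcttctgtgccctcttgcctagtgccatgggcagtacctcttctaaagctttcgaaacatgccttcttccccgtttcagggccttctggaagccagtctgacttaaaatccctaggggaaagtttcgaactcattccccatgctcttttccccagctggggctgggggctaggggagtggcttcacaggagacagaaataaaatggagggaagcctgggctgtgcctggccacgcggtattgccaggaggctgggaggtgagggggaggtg
Plin2: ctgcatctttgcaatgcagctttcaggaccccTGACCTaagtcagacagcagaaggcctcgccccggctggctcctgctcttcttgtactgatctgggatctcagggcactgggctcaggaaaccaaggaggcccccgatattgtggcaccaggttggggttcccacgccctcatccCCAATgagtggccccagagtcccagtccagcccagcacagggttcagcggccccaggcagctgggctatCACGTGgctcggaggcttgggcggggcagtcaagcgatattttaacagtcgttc
The Plin2 window holds CACGTG at position -4, counted from the start, CCAAT at position -73 and, on the opposite strand, AGGTCA at position -218. The Cidec window holds none of these motifs, and neither does the window at the other annotated Cidec start. Over all 32851 RefSeq windows of this length, 16.3% hold AGGTCA, 19.6% ACGTG, 7.15% CACGTG, 13.6% TATAAA and 37.4% CCAAT. The PPAR direct repeat, which is AGGTCA given again after 1 further base, is in 0.0396% of them and in none of the 9 windows found for 6 of the 10 genes, namely Plin2, Hilpda, Cidec, Lipe, Pnpla2 and Pnpla5. Gpd1, Dgat1, Dgat2 and Lpl have no entry.

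Among the genes of lipolysis, both patatin-like lipases fell while the inhibitor of the main one rose. Pnpla2 encodes ATGL, which takes the first fatty acid off triglyceride, and lies at chr7:141455198-141460743 on the plus strand. Pnpla2 measured 59.5, 91.0 and 68.9 CPM in the knockout libraries, with 105.0, 107.5 and 115.8 CPM in the control libraries. Knockout replicate 2 came close to the lowest control library, but the groups did not overlap. The mean was 73.1 ± 16.2 CPM in knockout and 109.4 ± 5.62 CPM in control (SD, n = 3 each), and the log2 fold change was -0.58 ± 0.156 (SE; edgeR adjusted p = 0.0358). This call was lost when knockout replicate 1, knockout replicate 3 or any control replicate was left out, at edgeR adjusted p = 0.131, 0.109, 0.0975, 0.0897 and 0.0954. It held without knockout replicate 2 (edgeR adjusted p = 0.0153).

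Hilpda encodes a small droplet protein that is induced by hypoxia and by fatty acids and inhibits ATGL. The gene lies at chr6:29272488-29275446 on the plus strand. Hilpda measured 13.4, 17.4 and 21.9 CPM in the knockout libraries, with 8.07, 7.85 and 7.73 CPM in the control libraries. The control libraries were almost equal, and the knockout libraries were spread out above them. The mean was 17.6 ± 4.23 CPM in knockout and 7.88 ± 0.173 CPM in control (SD, n = 3 each), 2.23-fold higher in knockout, with a log2 fold change of 1.16 ± 0.184 (SE; edgeR adjusted p = 0.00305). On library totals the log2 fold change was 0.87 and did not pass (edgeR adjusted p = 0.0986). The FPKM ratio of Hilpda to Pnpla2 was 0.616, 0.523 and 0.869 in knockout libraries, against 0.210, 0.200 and 0.183 in control libraries. G0s2, which encodes another inhibitor of ATGL, averaged 10.4 ± 1.37 CPM in knockout and 8.65 ± 0.863 CPM in control (SD, n = 3 each), with overlapping groups (edgeR adjusted p = 0.349). Its FPKM ratio to Pnpla2 was 0.613, 0.448 and 0.455 in knockout libraries, against 0.282, 0.253 and 0.286 in control libraries.

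Pnpla5 encodes a patatin-like triglyceride lipase that has been linked to autophagy in human cells, and lies at chr15:84112356-84123175 on the minus strand. Pnpla5 measured 4.42, 4.37 and 3.17 CPM in the knockout libraries, with 17.2, 13.5 and 16.3 CPM in the control libraries. No library of either group came near the other group. The mean was 3.99 ± 0.706 CPM in knockout and 15.6 ± 1.92 CPM in control (SD, n = 3 each), 3.92-fold lower in knockout, with a log2 fold change of -1.97 ± 0.187 (SE; edgeR adjusted p = 0.000131). The FPKM ratio of Pnpla5 to Pnpla2 was 0.103, 0.0666 and 0.0637 in knockout libraries, against 0.227, 0.174 and 0.196 in control libraries, so that the fall of Pnpla5 was the larger on this scale.

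Start regions of lipolysis genes that moved in opposite directions are shown with the same marks. They were picked because both hold the hypoxia response core, so the shared match follows from the choice. Of all RefSeq windows of this length, 19.6% hold that core. The Hilpda window is chr6:29272376-29272675 on the plus strand and the Pnpla5 window is chr15:84123126-84123425 on the minus strand.
Hilpda: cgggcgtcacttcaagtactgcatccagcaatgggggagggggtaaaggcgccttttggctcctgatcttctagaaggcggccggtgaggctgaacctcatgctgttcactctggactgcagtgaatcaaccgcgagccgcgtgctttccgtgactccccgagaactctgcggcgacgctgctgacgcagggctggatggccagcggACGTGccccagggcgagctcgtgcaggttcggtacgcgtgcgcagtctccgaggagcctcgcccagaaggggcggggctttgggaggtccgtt
Pnpla5: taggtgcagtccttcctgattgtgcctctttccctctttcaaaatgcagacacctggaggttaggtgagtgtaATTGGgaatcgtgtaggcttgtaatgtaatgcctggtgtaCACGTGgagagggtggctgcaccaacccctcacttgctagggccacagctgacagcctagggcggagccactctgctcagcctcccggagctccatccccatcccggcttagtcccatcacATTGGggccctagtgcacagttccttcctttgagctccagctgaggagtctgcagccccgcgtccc
The Hilpda window holds ACGTG at position -43. The Pnpla5 window holds CACGTG at position -137, the same letters as in the Plin2 window, and CCAAT on the opposite strand at positions -177 and -16. One of the 2 Lipe windows also holds CACGTG, at position -155. The window at the other annotated Hilpda start, which is the gene start given above at 29272488, holds none of these motifs, and neither does the Pnpla2 window.

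Lipe encodes hormone-sensitive lipase, which acts mainly on diacylglycerol and cholesteryl ester, and lies at chr7:25379527-25398710 on the minus strand. Lipe measured 2.33, 2.12 and 2.82 CPM in the knockout libraries, with 2.38, 2.24 and 3.79 CPM in the control libraries. The groups overlapped, with a log2 fold change of -0.21 ± 0.297 (SE; edgeR adjusted p = 0.730). The standard error leaves room for changes of either sign, and the sign turned to 0.07 without control replicate 3. The antisense gene 4732471J01Rik shares 918 of the 5886 exonic bases of Lipe and reached at most 0.501 CPM.

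Outside the cell, Lpl encodes lipoprotein lipase, which frees fatty acids from circulating triglyceride and ranked 241 by mean FPKM among the genes tested in knockout and 398 in control. It lies at chr8:68880491-68906934 on the plus strand. Lpl measured 2759, 2550 and 2017 CPM in the knockout libraries, with 1638, 1196 and 1330 CPM in the control libraries. All knockout libraries exceeded all control libraries, with a mean of 2442 ± 382.4 CPM in knockout and 1388 ± 226.7 CPM in control (SD, n = 3 each), 1.76-fold higher in knockout. The log2 fold change was 0.81 ± 0.196 (SE; edgeR adjusted p = 0.0221). The call was lost without knockout replicate 1 or 2 or control replicate 2 or 3, at edgeR adjusted p = 0.0716, 0.0708, 0.103 and 0.0610, and with limma on log2(FPKM + 1) (log2 fold change 0.49, adjusted p = 0.0605).

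Ratios of 2 genes within a library need no scaling between libraries. Of the 8 ratios compared, 6 did not overlap between knockout and control. Most pair genes already described as not overlapping, several of which moved in opposite directions, so the ratios give the same differences on another scale, and the share among other gene pairs was not computed. With 3 libraries a group the exact two-sided permutation test cannot give less than p = 0.1, and each of these 6 reached that value (adjusted over the 8 ratios, p = 0.133). The largest differences were 13.9-fold lower in knockout for Gpd1 to Gpd2, 6.39-fold lower for Cidec to Plin2 and 4.14-fold lower for Dgat2 to Dgat1. Hilpda to Pnpla2 was 3.32-fold higher and G0s2 to Pnpla2 1.83-fold higher in knockout. Pnpla5 to Pnpla2 was 2.61-fold lower. The ratios of Lipe to Pnpla2 and of Lpl to Angptl4 overlapped between groups (exact permutation p = 0.2 each).

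**Figure D2:**
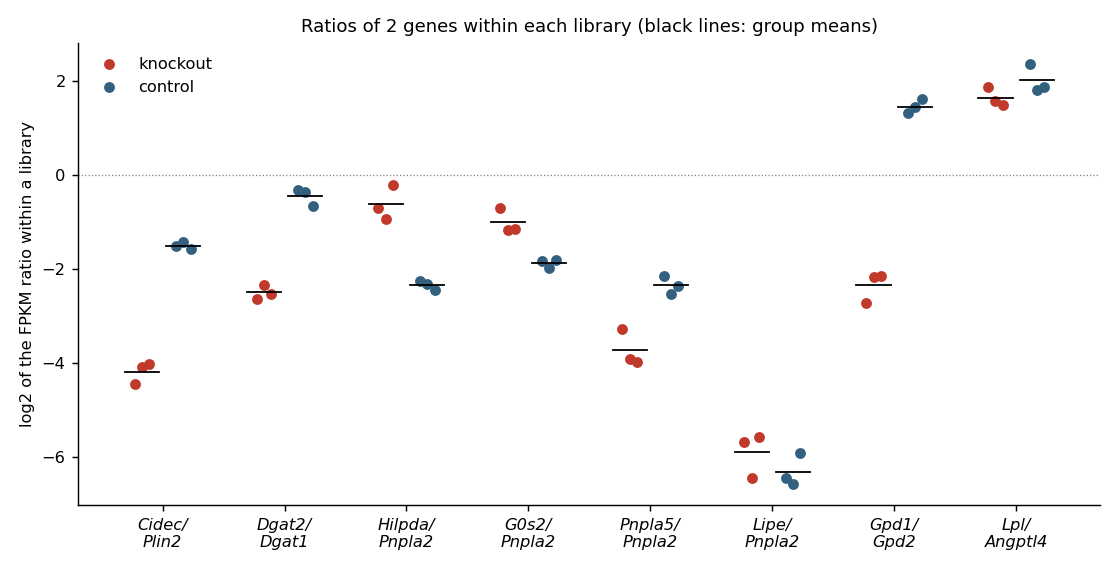
Log2 of the ratio of 2 genes in deposited FPKM (vertical axis) within each of the 3 knockout (red, left of each pair) and 3 control (blue, right) libraries; black lines are group means. Groups are apart for 6 ratios and overlap for Lipe/Pnpla2 and Lpl/Angptl4.

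The order of the genes by level per length differed between the groups. In FPKM, Plin2 came first in every library, at 1155 ± 192.2 in knockout and 657.7 ± 91.6 in control (SD, n = 3 each). In knockout Lpl came next at 195.0 ± 9.06 FPKM, ahead of Cidec at 63.4 ± 4.26 FPKM. In control Cidec came next at 231.5 ± 20.5 FPKM, ahead of Lpl at 139.5 ± 18.2 FPKM, and neither pair overlapped within its group. Pnpla2 and Dgat1 overlapped in knockout, at 20.5 ± 4.62 and 19.3 ± 4.97 FPKM, and were apart in control, at 38.7 ± 7.89 and 12.1 ± 3.11 FPKM. Hilpda, at 13.9 ± 5.74 FPKM in knockout, overlapped with Dgat1 there and stood above Dgat2 in all 3 libraries. In control, Dgat1, Dgat2, Gpd1, Pnpla5 and Hilpda formed a run in which each overlapped with the next, with means of 12.1 to 7.58 FPKM. In knockout the lower part of the order was Dgat2 at 3.44 ± 0.916, Pnpla5 at 1.52 ± 0.0343, Gpd1 at 0.568 ± 0.202 and Lipe at 0.352 ± 0.123 FPKM. Gpd1 and Lipe overlapped there, and Lipe was last in control at 0.515 ± 0.236 FPKM. Gpd1 fell to place 9070 of 14797 genes by mean FPKM in knockout, against place 2995 in control.

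**Figure D3:**
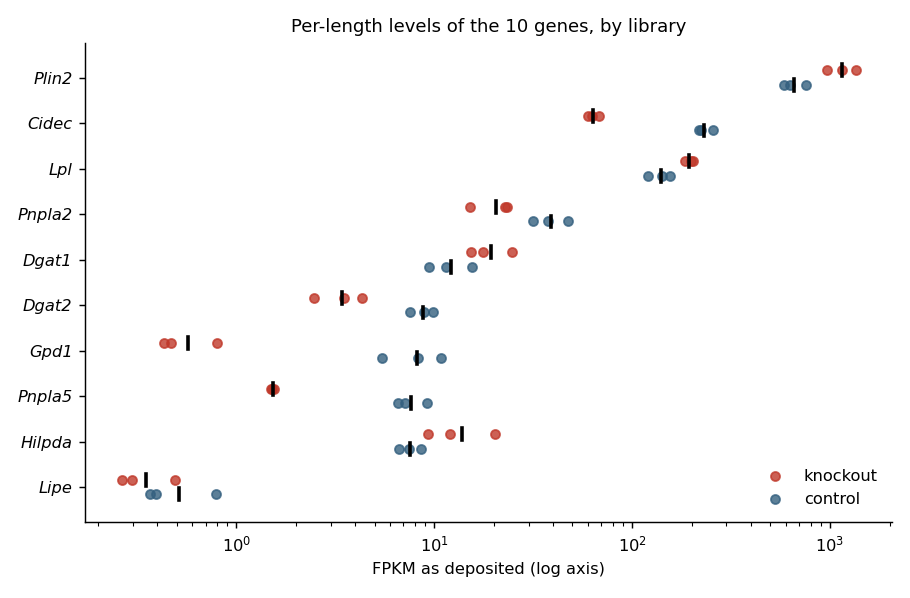
Deposited FPKM (horizontal log axis) of each gene in the 3 knockout libraries (red, upper row of each gene) and 3 control libraries (blue, lower row); black lines are means. Lpl exceeds Cidec in knockout and Cidec exceeds Lpl in control.

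Most other genes of triglyceride synthesis, like most of all genes tested, did not pass the test. For this list and those that follow, the shares to compare are those of all genes tested, 5.93% higher and 6.01% lower. Of 17 tested genes, 1 rose and 0 fell (edgeR adjusted p under 0.05; 2 and 1 at an unadjusted p under 0.05, and 1 and 1 with DESeq2), with a median log2 fold change of -0.01. Agpat2, which makes phosphatidic acid, rose to 24.5 ± 3.75 CPM in knockout, against 16.8 ± 1.08 CPM in control (SD, n = 3 each; edgeR adjusted p = 0.0387). Its call was lost when any library but knockout replicate 1 was left out (edgeR adjusted p from 0.0611 to 0.143) and on library totals (edgeR adjusted p = 0.677). The acyltransferase genes of the first step, Gpam, Gpat4 and Gpat3, had log2 fold changes of -0.44, 0.43 and -0.08 (edgeR adjusted p = 0.594, 0.112 and 0.899), and that of Gpat4 passed without control replicate 3 (edgeR adjusted p = 0.0400) and with a minimum of 10 CPM (edgeR adjusted p = 0.0437).

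Among 12 tested genes of droplet coat and assembly, 3 rose and 0 fell (edgeR adjusted p under 0.05; 4 and 0 at an unadjusted p under 0.05, and 3 and 0 with DESeq2), and the median was 0.34. Cideb, a relative of Cidec that is best known from liver, rose to 15.6 ± 3.42 CPM in knockout, against 6.08 ± 0.742 CPM in control (SD, n = 3 each; edgeR adjusted p = 0.00157). Cideb and Cidec thus moved in opposite directions. Bscl2, which encodes the droplet assembly protein seipin, rose to 100.4 ± 11.8 CPM in knockout, against 55.5 ± 9.81 CPM in control (edgeR adjusted p = 0.00610). Fitm2, which helps droplets bud from the endoplasmic reticulum, rose to 4.50 ± 0.887 CPM in knockout, against 2.23 ± 0.602 CPM in control (edgeR adjusted p = 0.0406). The call of Fitm2 was lost when any library but knockout replicate 1 was left out (edgeR adjusted p from 0.0564 to 0.133), and Bscl2 and Fitm2 both missed it on library totals (edgeR adjusted p = 0.213 and 0.218). Plin3, the ubiquitous perilipin, had a log2 fold change of 0.30 (edgeR adjusted p = 0.119), passed with a minimum of 10 CPM (edgeR adjusted p = 0.0388), and had -0.02 on library totals. Plin4 and Plin5 were below the expression filter.

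Of 12 tested genes of lipolysis and its regulators, 1 rose and 1 fell (edgeR adjusted p under 0.05; 3 and 1 at an unadjusted p under 0.05, and 2 and 1 with DESeq2), with a median of 0.16. Mgll, which encodes the monoglyceride lipase that completes lipolysis, rose to 253.7 ± 12.4 CPM in knockout, against 164.9 ± 18.5 CPM in control (SD, n = 3 each; edgeR adjusted p = 0.0124). Its call was lost without control replicate 2 (edgeR adjusted p = 0.0623) and on library totals (edgeR adjusted p = 0.395). Pnpla3, a further patatin-like gene, fell to 0.277 ± 0.110 CPM in knockout, against 1.24 ± 0.440 CPM in control (edgeR adjusted p = 0.0306). It rested on few counts, at 7, 15 and 19 units in knockout libraries against 46, 72 and 147 in control libraries, and no fit that left out a library kept the call (edgeR adjusted p from 0.0552 to 0.125). Abhd5, the co-activator of ATGL, had a log2 fold change of 0.23 and G0s2 of 0.27 (edgeR adjusted p = 0.276 and 0.349), and on library totals both turned to -0.09 and -0.08.

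Among 8 tested partners of lipoprotein lipase, 2 rose and 1 fell (edgeR adjusted p under 0.05; 3 and 2 at an unadjusted p under 0.05, and 2 and 2 with DESeq2), with a median of 0.28. Angptl4, a secreted inhibitor of lipoprotein lipase and a target of the PPAR receptors, rose to 263.1 ± 24.8 CPM in knockout, against 114.8 ± 7.44 CPM in control (SD, n = 3 each), with a log2 fold change of 1.20 (edgeR adjusted p = 0.000301). Enzyme and inhibitor therefore rose together, and their ratio overlapped between groups. The fatty acid receptor gene Cd36 rose to 178.1 ± 18.0 CPM in knockout, against 120.7 ± 19.8 CPM in control (edgeR adjusted p = 0.0315), but lost its call without any one library but control replicate 2 (edgeR adjusted p from 0.0530 to 0.135) and on library totals (edgeR adjusted p = 0.536). Apoc1, an apolipoprotein gene, fell to 14.1 ± 2.65 CPM in knockout, against 25.0 ± 4.79 CPM in control (edgeR adjusted p = 0.0174). Its call was lost without knockout replicate 3, control replicate 1 or control replicate 2 (edgeR adjusted p = 0.0588, 0.0814 and 0.0504). Lmf1, needed to fold lipoprotein lipase, had a log2 fold change of 0.22 (edgeR adjusted p = 0.425), and -0.10 on library totals. Gpihbp1, the capillary anchor of the enzyme, did not pass the expression filter.

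Of 12 tested transcription factor genes of lipid storage, 1 rose and 0 fell (edgeR adjusted p under 0.05; 2 and 1 at an unadjusted p under 0.05, and 1 and 1 with DESeq2), with a median of -0.14. Nr1h3, which encodes the oxysterol receptor LXR alpha, rose to 61.3 ± 9.17 CPM in knockout, against 40.5 ± 1.80 CPM in control (SD, n = 3 each; edgeR adjusted p = 0.0163). Its call was lost without knockout replicate 2 or 3 or control replicate 1 or 2 (edgeR adjusted p from 0.0559 to 0.0890) and on library totals (edgeR adjusted p = 0.549). Pparg, which encodes the lipid-sensing receptor of alveolar macrophage and fat cell identity, averaged 72.6 ± 9.37 CPM in knockout and 100.04 ± 22.6 CPM in control (edgeR adjusted p = 0.109), and it was called lower by DESeq2 (adjusted p = 0.0415) and by limma on log2(FPKM + 1) and log2(FPKM + 0.1) (adjusted p = 0.0234 and 0.0300). Cebpa and Srebf1, regulators of fat cell formation and of fatty acid synthesis, had log2 fold changes of -0.22 and 0.24 (edgeR adjusted p = 0.583 and 0.272), and that of Srebf1 was -0.07 on library totals.

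Agpat2, Bscl2, Mgll, Cd36 and Nr1h3 also missed the threshold in limma's fit to log2(FPKM + 1) (adjusted p = 0.606, 0.146, 0.343, 0.463 and 0.458). Over the 5 related lists, 8 of 61 tested genes rose and 2 fell, beside the 5.93% and 6.01% of all genes tested. On library totals 2 rose, Cideb and Angptl4, and 2 fell, Pnpla3 and Apoc1. The median log2 fold change of the 61 genes was 0.17 with TMM and -0.16 on library totals.

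**Figure D4:**
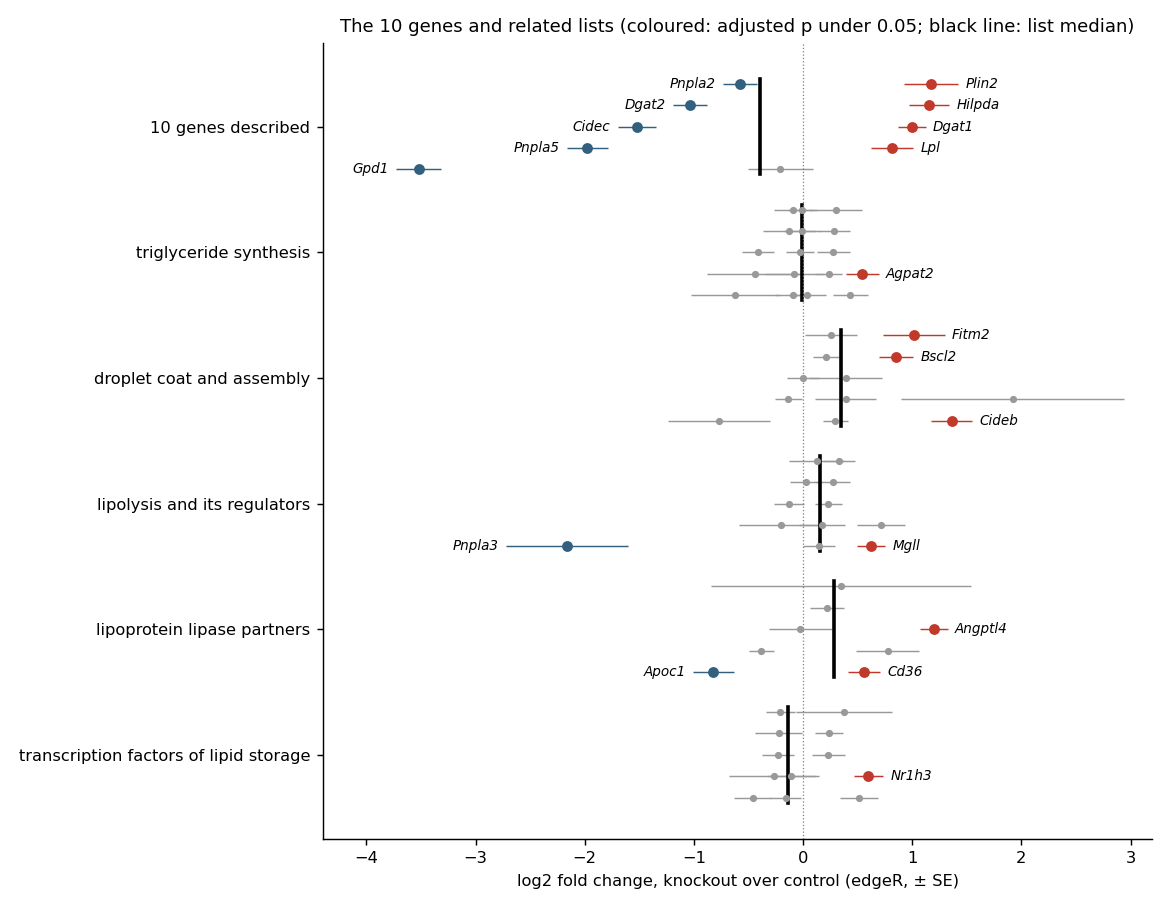
Log2 fold change of knockout over control ± SE (horizontal axis) for the 10 genes and for each tested gene of 5 related lists; red marks a rise and blue a fall with edgeR adjusted p under 0.05, grey no call, and black lines the list medians. The 10 genes reach from -3.52 to 1.17, and the 5 lists together hold 8 rises and 2 falls among 61 tested genes with TMM scaling, and 2 rises and 2 falls on library totals.

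Across settings the sign of all 9 called genes stayed the same. Gpd1, Cidec, Pnpla5, Pnpla2, Dgat2 and Plin2 passed the test in all 10 alternatives that kept every library, Hilpda in 9, Lpl in 8 and Dgat1 in 7. On library totals the log2 fold change was 0.81 for Plin2, 0.48 for Lpl and -1.35 for Dgat2. Gpd1 had a value of -2.51 in limma's fit to log2(FPKM + 1), since the pseudocount understates the change of low genes.

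**Figure D5:**
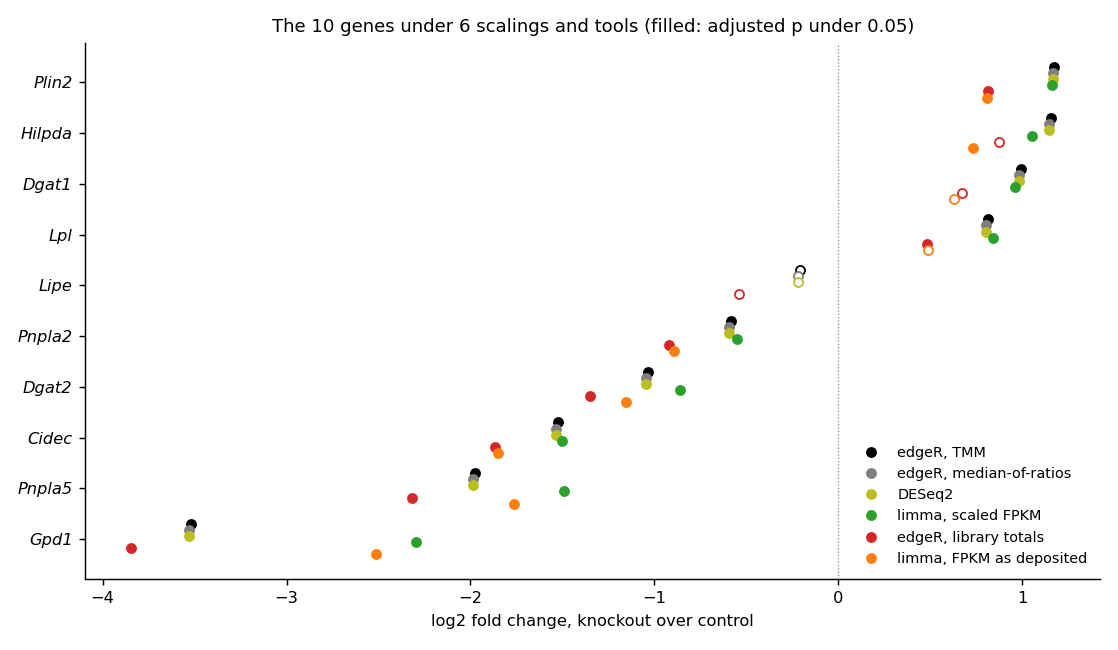
Log2 fold change of knockout over control (horizontal axis) of each gene under edgeR with TMM, with median-of-ratios factors and with library totals, DESeq2, and limma on FPKM scaled or as deposited; filled points have an adjusted p under 0.05. No called gene changes sign. Dgat1 loses its call on library totals and on FPKM as deposited, Hilpda on library totals and Lpl on FPKM as deposited.

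Genes whose log2 CPM followed Gpd1 most closely over the 6 libraries were Lst1, Ywhae and Sft2d3, with a Pearson r of 0.997, 0.996 and 0.996, among 5289 genes with a mean of at least 10 CPM. For Cidec they were Parl, Pts and Rpf1, with an r of 0.998, 0.997 and 0.996. Pearson r takes no account of the size of a change. Lst1, Ywhae and Sft2d3 had log2 fold changes of -0.58, -0.55 and -0.74, against -3.52 for Gpd1. Parl, Pts and Rpf1 had -0.50, -0.62 and -0.51, against -1.52 for Cidec. With 2 groups of 3 libraries that differ in level, 515 genes had an r of at least 0.9 with Gpd1 and 445 with Cidec, and all of them share the same libraries and depth.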

How the data were processed

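Per the labels' protocols, TRIzol served for RNA extraction and a NEBNext Ultra kit for library construction. The submitters' processing notes name the aligner HISAT2, StringTie, cutadapt, FastQC, edgeR, DESeq2 and build GRCm38; roles and versions are not given in the sources used here. Per the file headers, the authors deposited for every gene an estimated count and an FPKM in each library. Whether counting used strand is not given. The estimated counts are whole numbers, and 4 was the most frequent value above 0 in every library, so they were not read as tallies of reads. They were used without rounding.

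Counts were filtered with edgeR's filterByExpr, scaled by TMM and compared with a quasi-likelihood test without covariates. Benjamini-Hochberg adjustment covered every tested gene, with a threshold of 0.05. Fold changes between means are ratios of mean CPM, log2 fold changes come from the fit with its default prior count, and standard errors divide that value by the square root of the F statistic. Ratios used FPKM and an exact two-sided permutation test. Same-numbered libraries did not deviate together (Pearson r of deviations from the group means 0.03, -0.04 and 0.00), so replicate numbers were not used as pairs. No pair of libraries within a group agreed within counting noise (chi-square of counts divided by 4 at 15.5 to 44.4 times its degrees of freedom), so none was treated as deposited again. Software was Python 3.11.15 and R 4.3.3 with DESeq2 1.42.0, limma 3.58.1 and edgeR 4.0.16.

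The 10 genes, the lists, the markers and the ratios were chosen with earlier results of these data known. Named are the 10 genes, the genes of the ratios, and of each related list its first 3 symbols and every called gene. Also named are, for Gpd1 and Cidec, the 3 genes most alike in log2 CPM (prior count 2) at a mean of at least 10 CPM. Marker genes, Rack1 and overlapping antisense genes lie outside that rule. Alternatives were limma on log2(FPKM + 1) or (FPKM + 0.1) for genes at 1 FPKM or more in 3 libraries, limma on scaled FPKM, library totals, median-of-ratios factors, DESeq2, no filter, a minimum of 10 CPM, counts divided by 4, a block for the replicate number, and fits without 1 library.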

Additional observations from a re-analysis of the deposited data

How the results depend on the processing

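The 5 genes that fell did so under all 10 alternatives that kept every library. Of the 4 that rose, 2 passed with limma on log2(FPKM + 1), 2 with log2(FPKM + 0.1) and 2 on library totals. Leaving out one library gave 2 to 4 rises and 4 to 5 falls, the lowest count of rises without control replicate 2. Over all genes, 878 rose and 889 fell. Rises numbered 239 with limma on log2(FPKM + 1), 230 with log2(FPKM + 0.1) and 290 on library totals, and 455 to 691 when a library was left out, with 372 to 565 falls. The lowest counts of both were without control replicate 1. Falls with these 3 settings numbered 1150, 1120 and 933.

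Leaving out one library gave log2 fold changes of -0.35 to 0.070 for Lipe, positive only without control replicate 3, and of -0.45 to 0.077 for Gpat3, positive without knockout replicate 1, knockout replicate 3 or control replicate 1. Signs also turned with limma on log2(FPKM + 1), log2(FPKM + 0.1) and library totals for Plin3 (-0.0277, -0.0285 and -0.0222), Abhd5 (-0.0806, -0.0860 and -0.0942), G0s2 (-0.0536, -0.0566 and -0.0787), Srebf1 (-0.0798, -0.0845 and -0.0672) and Gpd2 (-0.0376, -0.0499 and -0.0466). Lmf1 turned to -0.10 on library totals. None of these genes had passed the test with TMM and the default filter, and the cause was not tested. With a minimum of 10 CPM, Plin3 and Gpat4 passed (log2 fold change 0.34 and 0.48, edgeR adjusted p = 0.0388 and 0.0437). No ratio changed direction with counts, a pseudocount or a left-out library. The mean difference within same-numbered pairs equals the difference of the group means by construction, so it is no further check.

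With the replicate block, 4 of the 10 genes rose and 5 fell, as without it, and 770 genes rose and 699 fell in all. Of the other named genes Fitm2 and Cd36 lost their call there (edgeR adjusted p = 0.0749 and 0.0533). The log2 ratio of Cidec to Plin2 differed by -2.68 within same-numbered pairs, by construction the same value as between the group means. Depth limits genes with few counts, such as Pnpla3 with 7 units in its lowest library.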
